A study of Mus musculus with 6 samples.

Results

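The genes described here are 9 genes of the bile duct lineage and of the Notch pathway: the Notch ligand *Jag1*, the receptor *Notch2*, the target genes *Hes1* and *Hey1*, the biliary transcription factor *Sox9*, the biliary keratins *Krt7* and *Krt19*, the epithelial adhesion molecule *Epcam* and the secreted phosphoprotein *Spp1*. They were chosen by name, and the annotation gave a probe set of their own to 8 of the 9, out of 19938 genes with a single-gene probe set. *Spp1* was not analysed here. Affymetrix mouse gene arrays measured liver RNA of 3 Lkb1KOlivad mice (KO, numbered B253, B304 and B305) and of 3 controls (WT, numbered B256, B267 and B302), each mouse on an array of its own. KO mice carried homozygous floxed *Lkb1* alleles and TTR-CreTam, a tamoxifen-inducible Cre recombinase driven by the transthyretin promoter. WT mice were littermates with the same floxed alleles and no Cre, so the name WT does not mean that their *Lkb1* locus was unmodified. Both groups were FVB/N females, received tamoxifen as adults and were fasted. The sex comes from the sample labels, while the methods of the study say that most of its experiments used males. The strain and tamoxifen treatment come from those methods, and the fasted state comes from the results text of the study. The transthyretin promoter directs the deletion to hepatocytes, not to biliary, endothelial or other cells of the liver.

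Notch signaling passes between neighbouring cells. A ligand such as Jag1 on one cell binds a receptor such as Notch2 on the next, the receptor is cleaved, and its intracellular domain enters the nucleus, binds Rbpj and switches on repressor genes of the Hes and Hey families. In the developing liver, Jag1 from the portal mesenchyme and Notch2 on hepatoblasts set the fate of the future bile ducts, where Sox9 appears early and Krt7, Krt19, Epcam and Spp1 mark the duct epithelium. In the adult liver, hepatocytes that acquire biliary traits under injury switch on *Sox9* and *Spp1* before the duct keratins.

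The 8 measured genes differed little between KO and WT livers, and none passed the test. With limma and Benjamini-Hochberg adjustment over all genes, 0 of 8 were called (adjusted p = 0.9997 for each), where 0.00502% of all genes were called. At an unadjusted p under 0.05 the count was also 0 of 8, against 3.03% of all genes. In 1 of 8, *Epcam*, the KO and WT values did not overlap, against 7.16% of all genes. The log2 fold changes of the 8 genes ran from -0.21 for *Epcam* to 0.18 for *Sox9*, with 2 above 0, 6 below 0 and a median of -0.082, beside a median of 0.0049 over all genes. The 95% intervals reached a median of 0.30 to either side on the log2 scale. On the linear scale they ran from 0.663-fold, the lower bound of *Notch2*, to 1.52-fold, the upper bound of *Sox9*, and each of the 8 intervals included no change. Each of the 8 genes had 1 probe set. The mean log2 signals of *Jag1*, *Hey1*, *Krt19* and *Epcam* lay below 4.85, the level under which the dimmest 40% of genes fell, and no detection calls were used here to tell them from background. The RNA was of whole liver, so fewer cells of a type and less RNA per cell cannot be told apart.

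The deleted gene served as a check of the labels. *Stk11* (probe set 10364683), which encodes Lkb1, had log2 signals of 6.52, 6.42 and 6.48 in KO mice B253, B304 and B305, against 8.24, 8.13 and 7.96 in WT mice B256, B267 and B302. All KO values lay far below all WT values, and the log2 fold change was -1.64 (standard error, SE, 0.12, limma adjusted p = 0.00705). The adjusted p was above 0.05 when any 1 mouse other than WT B302 was left out, with log2 fold changes between -1.66 and -1.57.

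**Figure D1:**
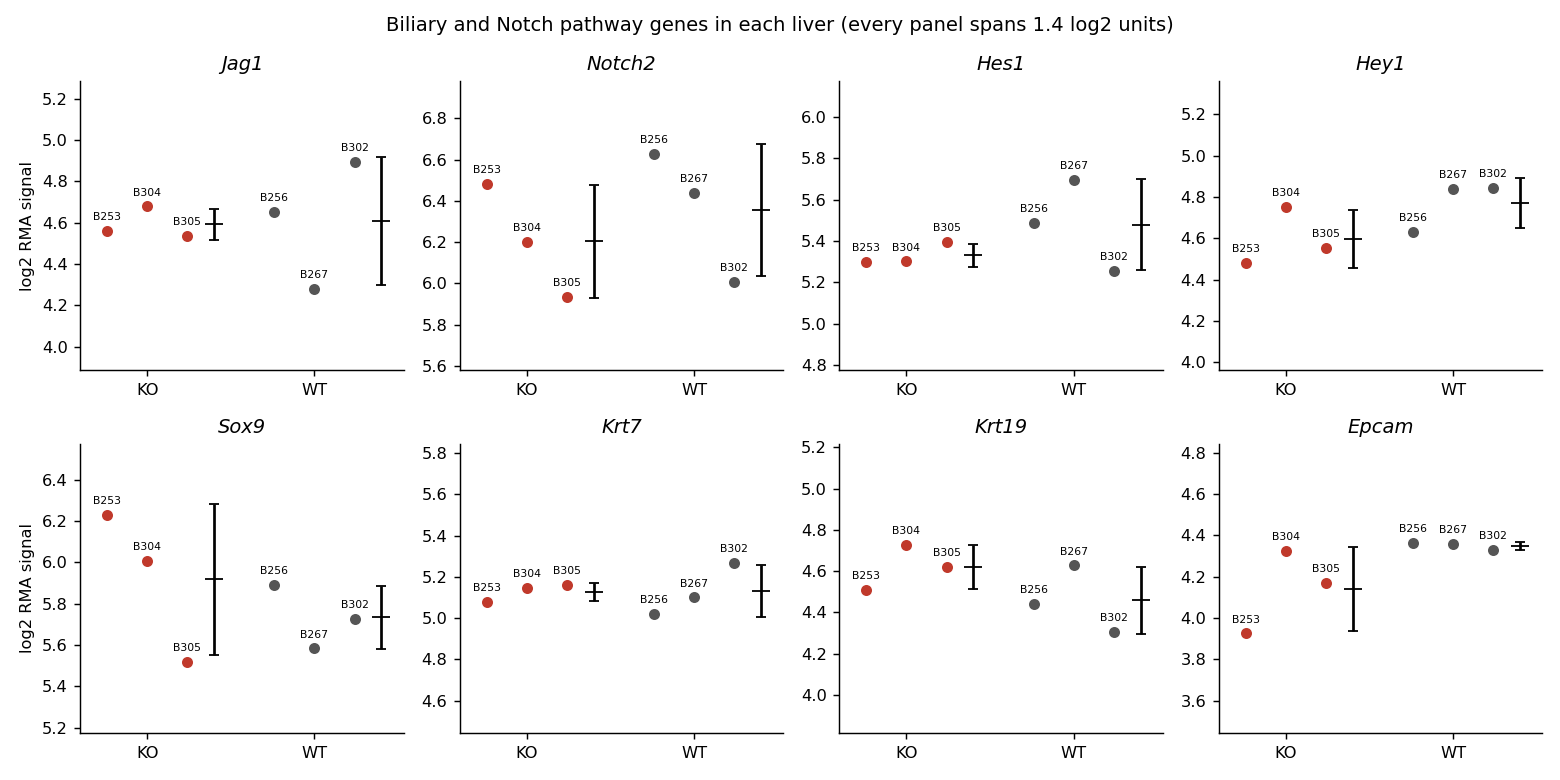
Log2 RMA signal (vertical axis) of the 8 measured biliary and Notch pathway genes in each liver, KO mice in red and WT mice in grey, with the group mean and SD (n = 3 each) beside the points. Every panel spans the same number of log2 units. The groups overlap in 7 of the 8 genes, and in *Epcam* all KO values lie below the WT values, KO B304 only just.

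Among the Notch genes, the ligand had nearly equal group means. *Jag1* (probe set 10488060) had log2 signals of 4.56, 4.68 and 4.54 in KO mice B253, B304 and B305, against 4.65, 4.28 and 4.89 in WT mice B256, B267 and B302. The 3 KO livers lay close together, inside the range of the WT livers, of which B267 was the lowest and B302 the highest of all 6. Mean log2 signals were 4.59 ± 0.076 in KO and 4.61 ± 0.31 in WT livers (SD, n = 3 each). The log2 fold change was -0.016 (SE 0.16, 95% interval -0.38 to 0.35), and its sign turned to 0.13 without WT B302.

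*Notch2* (probe set 10494595), the receptor of the duct lineage, gave log2 signals of 6.48, 6.20 and 5.93 in KO mice B253, B304 and B305, against 6.63, 6.44 and 6.01 in WT mice B256, B267 and B302. In both groups the mice numbered B2 were higher than those numbered B3, and the ranges of the groups overlapped almost fully. The mean log2 signal was 6.21 ± 0.27 in KO and 6.36 ± 0.32 in WT livers (SD, n = 3 each), a log2 fold change of -0.15 (SE 0.19, 95% interval -0.59 to 0.29).

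The direct target genes were slightly lower on average in KO livers, within the spread between mice. *Hes1* (probe set 10434925), a repressor that Notch induces in many tissues, had log2 signals of 5.30, 5.30 and 5.40 in KO mice B253, B304 and B305, against 5.49, 5.69 and 5.25 in WT mice B256, B267 and B302. The lowest of the 6 values belonged to WT B302, below every KO mouse. Group means of the *Hes1* log2 signal were 5.33 ± 0.056 in KO and 5.48 ± 0.22 in WT livers (SD, n = 3 each), with a log2 fold change of -0.15 (SE 0.14, 95% interval -0.46 to 0.16).

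*Hey1* (probe set 10497203), a related repressor, had log2 signals of 4.48, 4.75 and 4.56 in KO mice B253, B304 and B305, against 4.63, 4.84 and 4.84 in WT mice B256, B267 and B302. KO B253 and B305 were lower than all WT mice, while KO B304 was above WT B256. Its mean log2 signal was 4.60 ± 0.14 in KO and 4.77 ± 0.12 in WT livers (SD, n = 3 each), and the log2 fold change was -0.18 (SE 0.13, 95% interval -0.46 to 0.11).

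Of the biliary cell genes, *Sox9* varied most between KO mice. *Sox9* (probe set 10382328), the transcription factor of duct cells and of hepatocytes next to the portal vein, had log2 signals of 6.23, 6.01 and 5.52 in KO mice B253, B304 and B305, against 5.89, 5.58 and 5.73 in WT mice B256, B267 and B302. KO B253 and B304 were the highest of the 6 livers and KO B305 was the lowest, so the KO range enclosed the WT range. The mean log2 signal reached 5.92 ± 0.36 in KO and 5.73 ± 0.15 in WT livers (SD, n = 3 each), a log2 fold change of 0.18 (SE 0.19, 95% interval -0.24 to 0.61). KO B305 and B253 each set the size of this value: without B305 it was 0.38 (SE 0.15, limma adjusted p = 0.9996), and without B253 it was 0.029.

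The duct keratins did not separate the groups. *Krt7* (probe set 10427052) had log2 signals of 5.08, 5.15 and 5.16 in KO mice B253, B304 and B305, against 5.02, 5.10 and 5.27 in WT mice B256, B267 and B302. The KO values lay within the WT range, and the means were 5.13 ± 0.044 in KO and 5.13 ± 0.13 in WT livers (SD, n = 3 each). The log2 fold change was -0.0017 (SE 0.12, 95% interval -0.26 to 0.26). *Krt19* (probe set 10391036) had log2 signals of 4.51, 4.73 and 4.62 in KO mice B253, B304 and B305, against 4.44, 4.63 and 4.31 in WT mice B256, B267 and B302. KO B304 was the highest and WT B302 the lowest, but WT B267 was above the other KO mice. *Krt19* averaged 4.62 ± 0.11 in KO and 4.46 ± 0.16 in WT livers (log2 signal, SD, n = 3 each), with a log2 fold change of 0.16 (SE 0.13, 95% interval -0.13 to 0.45).

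*Epcam* (probe set 10447383), the adhesion molecule found on duct cells and not on resting hepatocytes, had log2 signals of 3.93, 4.33 and 4.17 in KO mice B253, B304 and B305, against 4.36, 4.36 and 4.33 in WT mice B256, B267 and B302. The WT livers were nearly identical and every KO liver lay below them, though KO B304 and WT B302 print the same to 2 decimals. Mean log2 signals were 4.14 ± 0.20 in KO and 4.35 ± 0.019 in WT livers (SD, n = 3 each), a log2 fold change of -0.21 (SE 0.13, 95% interval -0.50 to 0.087). The exact two-sided permutation test gave p = 0.1, the smallest that 3 against 3 mice allow. In the other 7 genes this p was between 0.2 and 1. The log2 fold change of *Epcam* was -0.10 without KO B253 and -0.30 without KO B304.

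The mouse numbers fall into a B2 series (KO B253, WT B256 and B267) and a B3 series (KO B304 and B305, WT B302), which each hold both groups. Whether the series stand for litters or cohorts is not given in the labels. The log2 fold change of *Sox9* was 0.49 within the B2 series and 0.037 within the B3 series, and *Epcam* had -0.43 and -0.080 in the same order. *Hey1* likewise kept its sign, with -0.26 within the B2 series and -0.19 within the B3 series. The other 5 genes had opposite signs in the series. *Krt19* had -0.024 within the B2 series and 0.37 within the B3 series, *Hes1* had -0.29 and 0.094, and *Jag1* had 0.095 and -0.29. The values of *Notch2* were -0.051 within the B2 series and 0.062 within the B3 series, and those of *Krt7* were 0.017 and -0.11. In a fit that blocks on the series, *Notch2* had 0.0057 and 0 of the 8 genes were called.

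**Figure D2:**
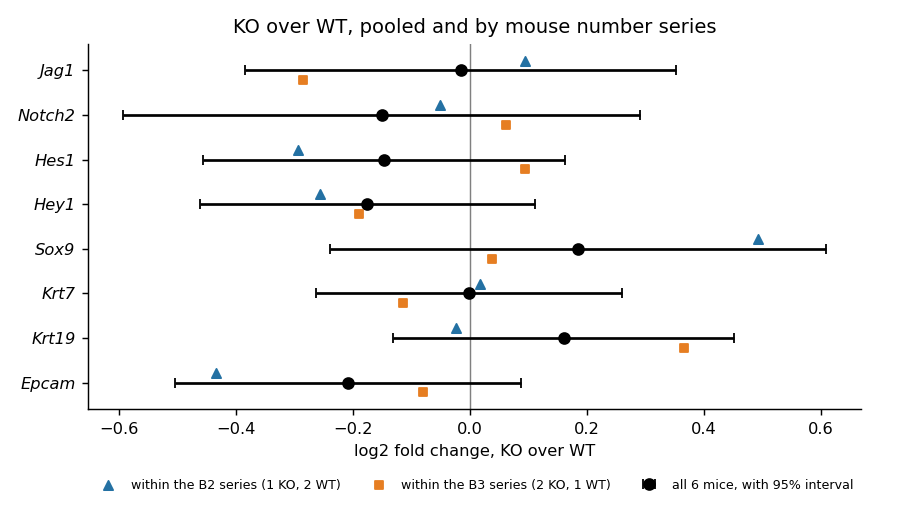
Log2 fold change of KO over WT livers (horizontal axis) for the 8 genes, as the value over all 6 mice with its 95% interval (black), within the B2 series of mouse numbers (blue triangles) and within the B3 series (orange squares). All 8 intervals include 0, and the series lie on opposite sides of 0 in *Jag1*, *Notch2*, *Hes1*, *Krt7* and *Krt19*.

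In the rest of the Notch pathway no gene passed the test, and the log2 fold changes ran from -0.42 to 0.18. Beyond *Jag1*, *Notch2*, *Hes1* and *Hey1*, 44 genes of the pathway were measured, of which 21 had a log2 fold change above 0 and 23 below 0, with a median of -0.0080. Among them 0 were called by limma after adjustment and 0 had an unadjusted p under 0.05. In 2 of 44 the groups did not overlap, *Adam17* with KO values above and *Hey2* with KO values below, where the groups did not overlap in 7.16% of all genes.

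All 5 ligands and all 4 receptors were measured. The ligands had a median log2 fold change of 0.026, with *Jag2* at 0.091, *Dll4* at 0.051 and *Dll3* at -0.11 (SE 0.13, 0.13 and 0.15). Of the receptors, which had a median of -0.17, or -0.068 without WT B256, 3 were below 0 and *Notch4* was above it, with 0.13 (SE 0.15). *Notch1*, the receptor of endothelial and many other cells, had log2 signals of 5.96, 5.73 and 5.80 in KO mice B253, B304 and B305, against 6.42, 5.73 and 6.16 in WT mice B256, B267 and B302. WT B267 was as low as the lowest KO mouse, and the log2 fold change of *Notch1* was -0.28 (SE 0.18, 95% interval -0.68 to 0.13). *Notch3*, a receptor of mural and stellate cells that is also a Notch target, had -0.18 (SE 0.14).

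For the receptor to signal, it has to be cleaved. Of 11 listed genes of receptor cleavage and ligand uptake 10 were measured, and their median log2 fold change was 0.046. *Adam17*, a protease that can cut the receptor outside the membrane, had log2 signals of 6.83, 6.64 and 6.74 in KO mice B253, B304 and B305, against 6.62, 6.64 and 6.53 in WT mice B256, B267 and B302. KO B304 and WT B267 nearly met, and the log2 fold change was 0.14 (SE 0.11). *Furin*, which cuts the receptor during its maturation, had -0.25 (SE 0.19), and *Aph1a*, a subunit of the gamma-secretase complex, had 0.16 (SE 0.15). Genes of receptor glycosylation and turnover (12 of 12 measured) had a median log2 fold change of -0.019. *Dtx4*, an E3 ubiquitin ligase, had log2 signals of 6.09, 5.16 and 5.59 in KO mice B253, B304 and B305, against 6.11, 5.94 and 6.05 in WT mice B256, B267 and B302. KO B304 and B305 were below all WT mice while KO B253 was among them, and the log2 fold change was -0.42 (SE 0.21, 95% interval -0.91 to 0.061). *Poglut1*, which adds O-glucose to the receptor, had -0.28 (SE 0.15).

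In the nucleus, *Rbpj*, the DNA-binding partner of the cleaved receptor, had a log2 fold change of -0.0025 (SE 0.16) at the brighter of its 2 probe sets. Of 8 listed genes of its complex, *Rbpj* included, 7 were measured, and *Rbpj* was itself their median. With the mean of probe sets the median was the 0.094 of *Maml2*. *Rbpj* was not below it there, so the dimmer probe set of *Rbpj* gave a higher value than the brighter. Of the 12 listed target genes, which include *Hes1* and *Hey1*, 11 had log2 fold changes below 0 and *Nrarp*, a feedback inhibitor of the pathway, had 0.083 (SE 0.23). The median of the targets was -0.13, or -0.068 without WT B302, 0 of the 12 had an unadjusted p under 0.05, and the 95% interval of each included 0. *Hes6* had -0.19 (SE 0.12). *Hey2*, a Hey gene of the vascular wall, had log2 signals of 2.89, 3.04 and 2.85 in KO mice B253, B304 and B305, against 3.10, 3.05 and 3.14 in WT mice B256, B267 and B302. Its KO values all lay below its WT values, in a range where probe sets are dim, and its log2 fold change was -0.17 (SE 0.11).

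**Figure D3:**
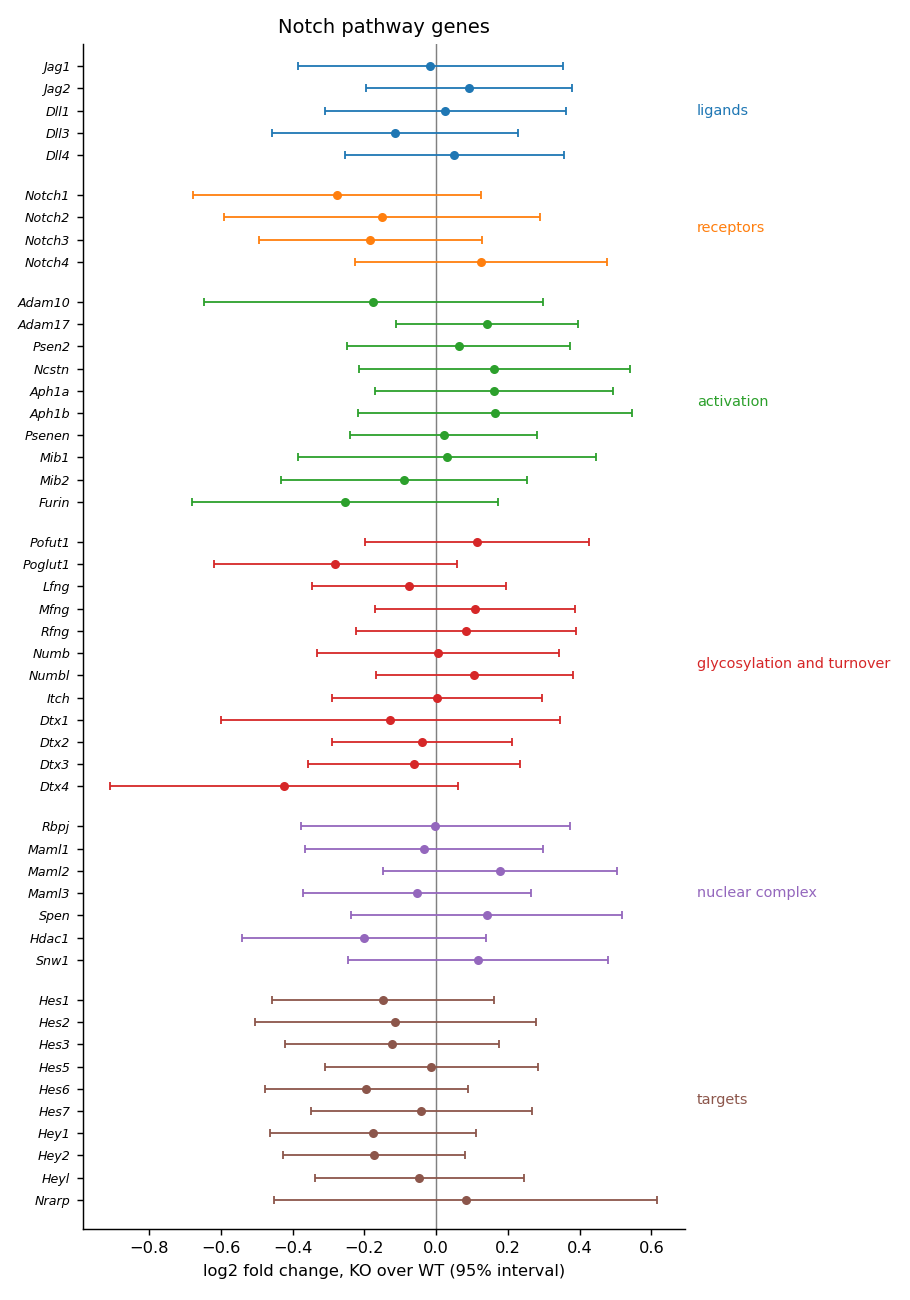
Log2 fold change of KO over WT livers (horizontal axis, with 95% intervals) for the 48 measured Notch pathway genes, grouped by role from ligands at the top to target genes at the bottom. Every interval includes 0, and the points run from -0.42 for *Dtx4* to 0.18 for *Maml2*.

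A wider list of duct cell markers gave the same range of values. Of 25 markers 22 were measured, *Sox9*, *Krt7*, *Krt19* and *Epcam* among them, with 9 log2 fold changes above 0, 13 below 0, a median of -0.029 and 0 at an unadjusted p under 0.05. The lowest values belonged to *Cldn4*, a tight junction protein, with -0.23 (SE 0.14), and to *Elf3*, an epithelial transcription factor, with -0.21 (SE 0.12). *Krt23* had 0.13 (SE 0.14). The list also holds *Krt8* and *Krt18*, with mean log2 signals of 9.04 and 8.71 in KO livers, against 9.04 and 8.78 in WT livers. Whether the signals of this list come from duct cells alone was not tested. The mean log2 signal over the 22 markers was 5.17 to 5.20 in the KO livers, against 5.22 to 5.23 in the WT livers, so all KO livers lay slightly below all WT livers. The highest KO liver had 5.204 and the lowest WT liver 5.221, and the median log2 fold change was 0.0013 without WT B302.

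Transcription factors that steer hepatoblasts toward duct or hepatocyte fate included *Onecut1*, whose log2 fold change was the largest in size among the genes on the lists. This gene (Hnf6, required in the embryo for normal duct formation) had log2 signals of 7.02, 7.44 and 8.43 in KO mice B253, B304 and B305, against 9.01, 9.02 and 9.73 in WT mice B256, B267 and B302, a log2 fold change of -1.62 (SE 0.34) that did not pass the adjustment over all genes (limma adjusted p = 0.9997, and 0.462 in the fit that blocks on the mouse number series described above). *Foxa2*, a pioneer factor of liver and duct, had log2 signals of 6.04, 6.07 and 6.18 in KO mice B253, B304 and B305, against 6.34, 6.36 and 6.32 in WT mice B256, B267 and B302. The groups stood apart by little, with a log2 fold change of -0.24 (SE 0.11). *Cebpa*, which promotes the hepatocyte fate, had -0.31 (SE 0.17). Of the 16 listed factors 14 were measured, 9 above 0 and 5 below 0, with a median of 0.049. At an unadjusted p under 0.05 there was 1 of the 14, *Onecut1* (limma unadjusted p = 0.0012), against 3.03% of all genes. The log2 fold change of *Onecut1* was -1.99 within the B2 series and -1.79 within the B3 series. Its lowest limma adjusted p over the alternatives was 0.280. The unadjusted limma p of *Foxa2* was 0.051, with 0.043 after quantile normalization and 0.090 in the robust fit with an intensity trend. The groups did not overlap in 7.16% of all genes. Among the 14 factors, KO values lay below WT values in 2, *Onecut1* and *Foxa2*, and above them in 1. That gene was *Gata4*, with 0.13 (SE 0.11), which is named here after its values were seen.

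The Yap and Tgf-beta pathways also act on duct fate. Their 13 listed genes, all measured, had a median log2 fold change of 0.0070, with 0 at an unadjusted p under 0.05. *Ccn1*, a target gene of Yap, had log2 signals of 6.92, 5.98 and 5.997 in KO mice B253, B304 and B305, against 6.04, 6.17 and 5.65 in WT mice B256, B267 and B302. KO B253 stood above the other 5 livers, which overlapped, and the log2 fold change of *Ccn1* was 0.35 (SE 0.26), with 0.82 within the B2 series and 0.34 within the B3 series. *Ccn2*, a target gene of both pathways, had a value of the other sign, -0.26 (SE 0.16). In the fit that blocks on the series, *Ccn1* had 0.58 (SE 0.14, limma adjusted p = 0.889) and *Ccn2* had -0.35 (SE 0.14, adjusted p = 0.964), and these 2 of 13 genes had an unadjusted p under 0.05 there, as did 5.02% of all genes. Without the block, *Smad7*, a feedback inhibitor of Tgf-beta signaling, had 0.24 (SE 0.14), and the receptor *Tgfbr1* had -0.22 (SE 0.13). In 1 of the 13 genes, *Tgfbr2*, the groups did not overlap, against 7.16% of all genes. Its log2 fold change was -0.098 (SE 0.11), and it is named here after its values were seen.

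Other cells of the liver express Notch genes too, so their markers were set beside these values. Hepatocyte markers (11 of 14 measured) had a mean log2 signal of 11.96 to 12.05 in KO livers, against 11.78 to 12.12 in WT livers, and *Alb*, which encodes albumin, had 12.48 to 12.77 in KO livers, against 12.42 to 12.86 in WT livers. Endothelial markers (12 of 12) had a mean of 6.51 to 6.58 in KO livers, against 6.58 to 6.89 in WT livers, where B256 was the highest. The highest KO liver (6.576) lay just below the lowest WT liver (6.579). Their median log2 fold change was -0.17, with 10 of 12 below 0, and 0.014 without WT B256.

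Stellate cell markers (12 of 12) had a mean of 5.70 to 5.86 in KO livers, against 5.93 to 6.17 in WT livers, so here too, and by more, every KO liver lay below every WT liver. Of the 12 markers 11 were below 0, with a median of -0.22 that ran from -0.32 without WT B302 to -0.12 without WT B256. At an unadjusted p under 0.05, which 3.03% of all genes had, there were 3: *Lrat*, the enzyme that stores retinol as ester, with -0.43 (SE 0.14), *Rgs5*, with -0.54 (SE 0.23), and *Ngfr*, with -0.29 (SE 0.12). None of the 3 passed the adjustment (limma adjusted p = 0.9997 for each). Kupffer cell markers (12 of 12) had a mean of 6.74 to 7.10 in KO livers, against 6.66 to 7.24 in WT livers, with 9 of 12 log2 fold changes below 0 and a median of -0.12. This Kupffer median was -0.0046 with the block, -0.17 within the B2 series and 0.18 within the B3 series. Over all 6 mice, the medians of the endothelial, stellate and Kupffer cell lists lay to the same side as those of the Notch receptors and target genes. The part of these cell lists in the Notch values was not tested.

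**Figure D4:**
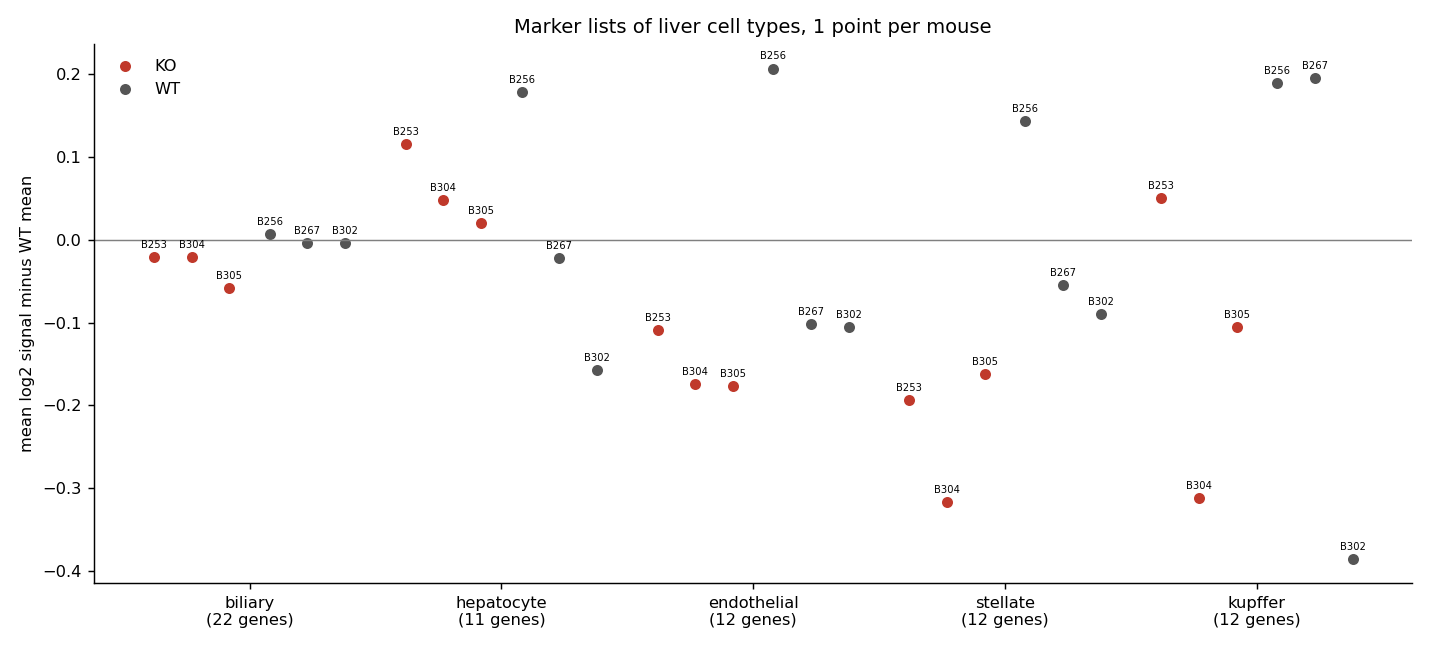
Mean log2 signal of 5 marker lists of liver cell types in each mouse (vertical axis), relative to the mean of the WT livers, KO mice in red and WT mice in grey. All KO livers lie below all WT livers in the stellate list and, by small margins, in the biliary and endothelial lists, and in the endothelial list WT B256 stands above the other 5 livers.

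The 8 genes did not vary as a group from mouse to mouse. Over the 6 mice, the 28 pairs of genes had Pearson correlations from -0.87, between *Krt7* and *Notch2*, to 0.81, between *Epcam* and *Hey1*. *Jag1* and *Hes1* had -0.82. These correlations are given as a description, since the genes share arrays and the mice are few. The mean of *Sox9*, *Krt7*, *Krt19* and *Epcam*, each centred on its own mean, was highest in KO B304 (0.12) and lowest in KO B305 (-0.067), with KO B253 at 0.0016 and the WT mice between -0.028 and -0.0056. Among 7280 genes with an SD of at least 0.2 over the mice, the patterns most like this mean were those of *Ceacam15* (r = 0.999), the olfactory receptor *Olfr297* (0.987), the vomeronasal receptor *Vmn2r90* (0.981), *Fchsd2* (0.979) and *1700014D04Rik* (0.979). The most opposite were *Slc36a3* (-0.971), *Uck2* (-0.970) and *Tubb6* (-0.969). None of these is on the list of duct cell markers, and the values are the extremes of a search over this many genes in 6 mice.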

How the data were processed

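The deposited values are log2 RMA signals, which the authors made with RMA and Partek per the labels, from RNA extracted with Trizol and amplified and biotin-labelled with NuGEN kits. Expression Console and BRB-ArrayTools are the tools in the methods, and no versions were found in the labels or methods. Of 35556 probe sets, 21789 had 1 gene symbol, and the brightest per gene was kept, which gave 19938 genes. The annotation was matched on the probe set identifiers of the deposited values. It belongs to an earlier array generation than the methods name. No intensity filter was applied. The 3 KO and 3 WT arrays were compared in limma 3.58.1 (R 4.3.3, lmFit and eBayes, two-sided, no covariate) with Benjamini-Hochberg adjustment over all genes and a threshold of 0.05. The mice are separate animals, and 3 a group limit the precision. The procedure was tested on simulated data. Figures were drawn with matplotlib 3.10.9.

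The 9 genes and the gene lists were chosen with earlier results of these data known, so their counts are descriptions, and no set test was run. Named besides the 9 were *Stk11*, some of the up to 4 genes with the smallest p in each list, every list gene at an unadjusted p under 0.05, and the genes most like the biliary mean. *Rbpj*, *Nrarp*, *Alb*, *Gata4*, *Tgfbr2*, *Krt8*, *Krt18*, *Foxa3* and *Lyve1* were named after their values were seen. Alternatives in processing were quantile normalization, median centring, leaving out dim genes and the mean of probe sets. Alternatives in the fit were an unpaired t-test, array weights and a robust fit with an intensity trend. The mouse number series was also used as a block or split, and each mouse was left out. The methods name the unpaired t-test for comparing groups and state no test for the arrays.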

Additional observations from a re-analysis of the deposited data

How the results depend on the processing

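None of the 8 genes was called under any of the 14 alternatives with a test that held it, and the lowest adjusted p was 0.967. Leaving out dim genes removed *Jag1*, *Hey1*, *Krt19* and *Epcam*, so 4 of the 8 were tested there. The count at an unadjusted p under 0.05 ranged from 0 to 1 when single mice were left out, the 1 being *Sox9* without KO B305. *Sox9*, *Hey1* and *Epcam* kept their sign in every value obtained. Of 124 values of the 8 genes, 13 changed sign. The cause was not tested for any change given here. No paired analysis was possible because the labels give no replicate numbers shared between the groups.

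With array weights, *Krt7* had a log2 fold change of 0.026 and *Jag1* of 0.050. In the fit that blocks on the mouse number series, *Notch2* had 0.0057. At an unadjusted p under 0.05, this fit had 2 of the 14 fate factors and 2 of the 13 Yap and Tgf-beta genes. The 2 factors were *Onecut1* and *Foxa3*, and *Foxa3* had the opposite sign, with 0.51 (SE 0.17, limma adjusted p = 0.964). This fit also had 1 of the 12 endothelial and 2 of the 12 stellate markers at such a p, against 5.02% of all genes. The endothelial marker was *Lyve1*, with -0.58 (SE 0.14, limma adjusted p = 0.889). The other lists had 0, and after adjustment each list had 0. Within the B2 series, the values were 0.017 for *Krt7*, -0.024 for *Krt19*, 0.095 for *Jag1*, 0.0054 for *Cldn4*, -0.0019 for *Dll1*, 0.0089 for *Dll3*, 0.065 for *Dtx4* and -0.18 for *Snw1*. Within the B3 series, they were 0.062 for *Notch2*, 0.094 for *Hes1*, -0.0066 for *Dll4*, -0.035 for *Jag2*, -0.093 for *Mfng* and 0.057 for *Tspan8*. Leaving out each mouse in turn gave -0.056 to 0.067 for *Krt7*, -0.18 to 0.13 for *Jag1*, -0.046 to 0.16 for *Dll4*, -0.25 to 0.0087 for *Dll3*, -0.090 to 0.17 for *Dll1*, -0.0030 to 0.17 for *Jag2*, -0.029 to 0.22 for *Notch4*, -0.016 to 0.30 for *Spen*, -0.049 to 0.22 for *Snw1* and -1.71 to -1.57 for *Stk11*. With the sign kept, it gave -0.33 to -0.015 for *Notch2*, -0.26 to -0.039 for *Hes1*, 0.084 to 0.24 for *Krt19*, 0.029 to 0.38 for *Sox9*, -0.25 to -0.12 for *Hey1* and -0.30 to -0.10 for *Epcam*. In an unpaired t-test *Stk11* kept its log2 fold change of -1.64 with an adjusted p of 0.566. The methods name that test for comparing groups and state no test for the arrays.

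Of 224 medians of the 14 lists, 27 moved by more than the spread between mice. The median log2 fold change of the duct cell markers was -0.0017 without dim genes, -0.048 with the block, -0.0094 within the B2 series, -0.045 within the B3 series and -0.048 to 0.0013 when single mice were left out. For the nuclear Notch complex it was 0.094 with the mean of probe sets, 0.069 with the block, -0.14 within the B2 series and -0.0019 to 0.14 with single mice left out. The fate factors had 0.22 within the B2 series, -0.15 within the B3 series and -0.077 to 0.10 with single mice left out. The stellate markers had -0.11 with the block and -0.080 within the B3 series. Within the B2 series the Notch targets had -0.041. Within the B3 series the 8 genes had -0.022, the cleavage genes 0.18 and the Kupffer cell markers 0.18. With single mice left out, the 8 genes had -0.096 to -0.017, the Yap and Tgf-beta genes -0.057 to 0.072 and the endothelial markers -0.26 to 0.014. Each series holds 3 mice, of which 1 is the only mouse of its group, and the error of the values within a series was not estimated.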
